A study of Arabidopsis thaliana with 6 samples.

Results

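The subject is the pool of plastid mRNA fragments that made up the 3 input libraries of a digestion-optimized RNA co-immunoprecipitation (DO-RIP-Seq) of CP31A, an RNA-binding protein of the chloroplast. The inputs are 3 of the 6 libraries of the series. The other 3 are the CP31A pellets, which are not compared here. All 3 inputs came from wild-type (WT) *Arabidopsis thaliana* seedlings of the Columbia-0 background, which were 14 days old and had grown on soil with vermiculite in long days at 21 °C, and the labels give "none (input)" as their antibody. Members were all 77 gene entries of the deposited table. The 2 copies of *ndhB*, *rps7*, *rpl2* and *ycf2* that lie in the inverted repeat were averaged to 1 RNA each, which left 73 RNAs. An input was an aliquot of the mix of cross-linked extract, nuclease and anti-CP31A beads before any wash, so it held RNase I-trimmed fragments of a narrow length range and not whole transcripts. Harvests were made in triplicate from seedlings, and a lower level per cell cannot be told apart here from fewer cells or plastids that hold the RNA. The table holds plastid genes alone, so the labelled tissue was not checked against markers of the nucleus.

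The plastid genome of a land plant encodes a small share of the chloroplast's proteins, chiefly core subunits of the photosynthetic complexes, of the NADH dehydrogenase-like (NDH) complex, of the plastid ribosome and of the plastid-encoded RNA polymerase. Many of its genes stand in operons that are transcribed together, and the long primary transcripts are then cut, spliced and trimmed into overlapping smaller RNAs. RNAs of genes that share a primary transcript can therefore differ in level. In green leaves the RNAs for the photosynthetic core proteins are known to be abundant, above all *psbA*, whose product D1 is damaged by light and replaced throughout the life of the leaf.

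Levels are given in TPM, that is, the reads of a gene over its window length, put on a common total in every library. A window was the coding region with its introns and 100 nt on each side. Where 3 values of an RNA stand in a row they are those of inputs 1, 2 and 3, and the mean over libraries is the mean of log2 TPM turned back into TPM. The deposited values correspond to 24636, 68897 and 74879 reads over the 77 entries, and the median RNA had 39, 131 and 146 reads. Input 1 stood apart from the others. Across the 73 RNAs its log2 TPM correlated with inputs 2 and 3 at r = 0.919 and r = 0.935, whereas inputs 2 and 3 correlated at r = 0.994. Such values describe RNAs of the same libraries, not independent samples. In input 1, 24 RNAs rested on under 20 reads, against 6 in input 2 and 3 in input 3, and 24 and 18 RNAs differed more than 2-fold between input 1 and inputs 2 and 3, against 0 between inputs 2 and 3. Values without input 1 are therefore given beside a number of the results that it moved.

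Some of the sequences behind these values are printed in 2 sets, taken from RefSeq's TAIR10.1 chloroplast chromosome of 154478 bp. The first set is shown because it marks the upper and the lower end of the range of levels. A bacterial-type promoter core, TTGACA followed after 15 to 19 bases by TANNNT, was searched for on both strands of the 250 nt before each of the 73 start codons, and 3 of them held it, all on the coding strand. In each it began 115 nt before the start codon, and the capitals mark the TTGACA and TANNNT boxes.
*psbA*, chloroplast:1530-1559, minus strand: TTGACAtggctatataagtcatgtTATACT
*ycf1.1*, chloroplast:109290-109317, plus strand: TTGACAtaagagatgtcgtttcTAGTCT
*ycf1.2*, chloroplast:129332-129359, minus strand: TTGACAtaagagatgtcgtttcTAGTCT
The letters before *ycf1.1* and *ycf1.2* are identical because both lie in the inverted repeat, so these 2 matches are 1 repeated sequence. The spacer had 18 bases before *psbA* and 16 before the *ycf1* entries. TTGACA alone occurred in 9 of the 73 windows on the coding strand (12.3%) and in 13 on either strand (17.8%). TATAAT occurred in 19 (26.0%) and in 32 (43.8%). TATAAT is itself 1 form of TANNNT. The full core stood before the RNA of rank 1 and before those of ranks 65 and 73. A match is a description of the letters and no evidence of transcription.

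The second set holds the places where neighbouring coding regions of an operon share bases, since a read there lies in both reading frames. Capitals mark the shared bases, and the strand is the coding strand of both genes.
*psbC* in *psbD*, chloroplast:33750-33778, plus strand: taccacGTGGAAACGCTCTTTAAtggaac
*atpE* in *atpB*, chloroplast:52648-52675, minus strand: taaattgaagaaATGAccttaaatcttt
*rps3* in *rpl22*, chloroplast:83460-83489, minus strand: gaggcctATGGGACAAAAAATAAatccact
The shared stretch was 17 bases in *psbC* and *psbD*, 4 in *atpE* and *atpB*, and 16 in *rps3* and *rpl22*. In each, the start codon of the downstream frame begins before the stop codon of the upstream frame. In *atpE* and *atpB* these codons overlap. The *psbC* stretch begins at the GTG that fits the length of the deposited window.

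The levels spanned 3 orders of magnitude, and 1 RNA dominated. *psbA* (chloroplast:383-1444, minus strand, in the large single-copy region) encodes the D1 protein of the photosystem II reaction centre. It stood at 393180, 551105 and 484760 TPM, which was 39.9%, 55.9% and 49.2% of the summed TPM, and it was the highest RNA in all 3 libraries. The share was lowest in input 1, and its mean was 48.3%, or 52.6% without that library. The highest RNA exceeded the lowest 2268-fold, 2838-fold and 2202-fold in the 3 libraries. *rbcL* (chloroplast:54958-56397, plus strand), which encodes the large subunit of the CO2-fixing enzyme Rubisco, came next at 121619, 86469 and 107222 TPM. It was below *psbA* and above every other RNA in each library. Its level was 0.221-fold that of *psbA* on average, and 0.309-fold, 0.157-fold and 0.221-fold in inputs 1, 2 and 3.

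**Figure D1:**
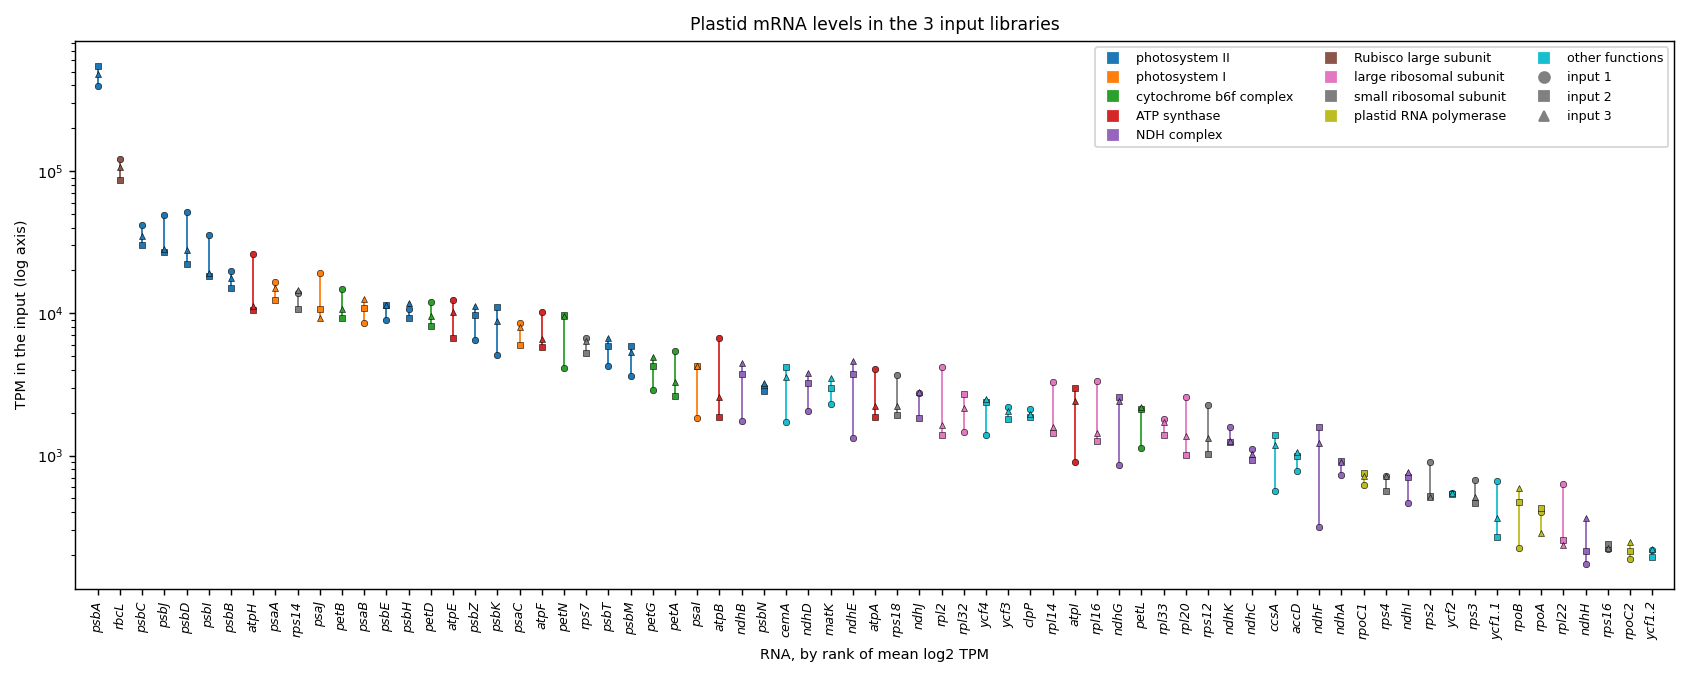
TPM of 71 RNAs (log axis) in input 1 (circles), input 2 (squares) and input 3 (triangles), ordered by mean log2 TPM from the highest on the left and coloured by functional class; lines join the 3 values of an RNA. *psbA* (393180 to 551105 TPM) and *rbcL* (86469 to 121619 TPM) stand clear of all others, and the longest lines belong to RNAs at which input 1 departs from inputs 2 and 3, such as *ndhF* and *atpB*.

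Behind them came a group of photosystem II RNAs. *psbC*, which encodes the inner antenna protein CP43, had 41970.2, 30156 and 35153 TPM. *psbJ*, which encodes a small subunit of the complex, had 48961, 26853 and 28278 TPM. *psbD*, which encodes the reaction centre protein D2, had 51606, 22192 and 27878 TPM. The 3 ranges overlap, so that the order among them is not settled beyond their spread, and for all 3 RNAs input 1 lay above both other libraries. *psbI*, a small subunit beside the reaction centre, had 35441, 18313 and 19320.3 TPM, and its window also holds 9 nt of a tRNA gene for serine. *psbB*, which encodes the inner antenna protein CP47, had 19924, 15027 and 17797 TPM. The *psbB* level varied little (SD 0.20 on the log2 scale), whereas those of *psbJ*, *psbD* and *psbI* varied more (SD 0.48, 0.63 and 0.53). Input 1 was the highest library for *psbB* as well as for these others.

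The remaining photosystem II RNAs were *psbE* (the alpha subunit of cytochrome b559), *psbH*, *psbZ*, *psbK*, *psbT*, *psbM* and *psbN*. Their means ran from 10535 TPM for *psbE* down to 3034 TPM for *psbN*. *psbN* lies on the strand opposite to its neighbours in the *psbB* operon and is known as an assembly factor in tobacco. It had 3031, 2833 and 3251 TPM, one of the smallest spreads in the pool (SD 0.10), though below the counting error of its mean (0.14). All 13 photosystem II RNAs lay above the median of the 73 RNAs, and 10 of the 13 were among the 20 highest.

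In photosystem I the 2 reaction centre subunits were close in level. *psaA* had 16704, 12340.3 and 15111 TPM and *psaB* had 8608, 10856 and 12693 TPM, so *psaA* was above *psaB* in each library, by 1.94-fold in input 1 but only 1.14-fold and 1.19-fold in inputs 2 and 3. *psaJ*, a small subunit, had 19169, 10710.1 and 9281 TPM, and *psaC*, which carries the terminal iron-sulphur clusters, had 8489, 6014 and 8018 TPM. *psaI*, another small subunit, was the lowest of the class with 1831, 4271 and 4258 TPM, and input 1 lay well below the others. All 5 photosystem I RNAs exceeded the median of the pool.

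For the cytochrome b6f complex, which links the photosystems, *petB* (cytochrome b6) was highest with 14824, 9320 and 10765 TPM and *petL* (a small subunit) was lowest with 1133, 2118 and 2177 TPM. *petD* (subunit IV) and *petA* (cytochrome f) had means of 9787 and 3605 TPM. The *petB* level exceeded that of *petA* in every library, with a mean of 3.17-fold. Among the ATP synthase RNAs, *atpH*, which encodes the ring-forming c subunit of which each complex holds many copies, was highest with 26325, 10583 and 11305 TPM. *atpI*, which encodes subunit a, was lowest with 908, 2988 and 2425 TPM. Input 1 held the highest *atpH* value and the lowest *atpI* value of the 3 libraries. Of the RNAs for the catalytic-head subunits, *atpB* (beta) had 6749, 1858 and 2582 TPM and *atpA* (alpha) had 4031, 1859 and 2214 TPM, and input 1 was above both other libraries for each. Their ratio, *atpB* over *atpA*, was 1.67, 0.999 and 1.17.

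The RNAs of the NDH complex, which carries cyclic electron flow around photosystem I, were mostly low. *ndhB* (chloroplast:94941-97164 and its repeat copy) was the highest of the 11 with 1739.8, 3722 and 4499 TPM, and *ndhH* the lowest with 173, 214 and 361 TPM. The *ndhH* value of input 1 rests on 5 reads, for which an exact 95% Poisson interval runs from 56.3 to 405 TPM and covers counting error only. Only 3 of the 11 lay above the median of the pool, and none was among the 20 highest. *ndhF* had the largest spread of all 73 RNAs, with 314, 1584 and 1234 TPM (SD 1.26 on the log2 scale), and *ndhE* (1326, 3752 and 4648 TPM) and *ndhG* (852, 2597 and 2424 TPM) were also among the 5 largest. In these 3, input 1 lay far below the others, while inputs 2 and 3 differed by at most 0.36 on the log2 scale. Input 1 held 16, 14 and 13 reads of *ndhF*, *ndhE* and *ndhG*. Other *ndh* RNAs varied little, with an SD of 0.13 for *ndhC*, 0.18 for *ndhA* and 0.19 for *ndhK* on the log2 scale, and the median SD of the class was 0.46, against 0.41 over all RNAs. The counting error of the mean alone was 0.18, 0.10 and 0.12 for *ndhC*, *ndhA* and *ndhK*. Their small SDs are therefore no sign of steady levels.

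The 21 RNAs for the plastid's own gene expression were mostly low. In the small ribosomal subunit *rps14* was an exception. It had 14005, 10803 and 14636 TPM, which placed it at rank 10, and it is the last gene of a unit behind *psaA* and *psaB*. *rps7* followed with 6708, 5254 and 6378 TPM. The lowest of the class, *rps16* (an intron-containing gene), had 220.3, 240.2 and 222 TPM from 6, 18 and 18 reads, and 6 of the 10 RNAs of the class were among the 20 lowest. None of the 7 RNAs of the large ribosomal subunit exceeded the pool median on average. *rpl2* was the highest of these with 4197, 1388 and 1633 TPM, and *rpl22* the lowest with 631, 255 and 236 TPM from only 9, 10 and 10 reads. Input 1 was the highest library for both.

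All 4 RNAs of the plastid RNA polymerase were among the 20 lowest. *rpoC1* had 616, 752 and 717 TPM and *rpoC2* had 188, 213 and 245 TPM, whereas *rpoB* had 224, 469 and 589 TPM and *rpoA* 403, 424 and 284 TPM. These genes encode the beta', beta'', beta and alpha subunits of the enzyme. Among RNAs of other function, *cemA*, which encodes an envelope membrane protein, was highest with 1723, 4207 and 3548 TPM. *ycf1.2* (chloroplast:123884-129244, minus strand), the full-length *ycf1* reading frame, which encodes a protein of the import machinery of the inner envelope, was the lowest RNA of the pool on average with 215, 194 and 220.2 TPM, although *ndhH* and *rpoC2* were lower in input 1. *ycf1.1* is the shorter copy across the border of the repeat and had 661, 269 and 366 TPM. Nearly all of its frame (chloroplast:109405-110436) lies in the repeat, whose first copy ends at 110434, and matches the start of *ycf1.2*. Its 17, 19 and 28 reads cannot be told apart from those of *ycf1.2*, so its rank is not that of a separate RNA. *ycf2*, which encodes a large membrane protein with an ATPase domain, had 548, 541 and 541 TPM and the smallest spread of the pool (SD 0.01). *clpP*, which encodes the proteolytic subunit of the Clp protease, had 2139, 1852 and 1957 TPM and was also among the 5 smallest spreads, as were *rps16*, *psbN* and *ycf1.2*. For *ycf2*, *rps16*, *psbN* and *ycf1.2* the SD lay below the counting error of the mean (0.07, 0.25, 0.14 and 0.13). For *clpP* the SD was 0.11 and the counting error of the mean 0.07. The counting error of a single library is larger than that of the mean. None of these 5 small spreads therefore shows that a level was steady.

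Between these ends, input 1 was below the other libraries for some RNAs, above them for others and close to them for the rest. *petN*, a small subunit of the cytochrome b6f complex, had 4131, 9729 and 9554 TPM, *psbK* had 5090.2, 11009.7 and 8889 TPM and *psbM* 3614, 5882 and 5387 TPM. These short RNAs of the photosynthetic complexes had only 25, 41 and 23 reads in input 1. *ccsA*, needed for haem attachment to cytochromes, had 565, 1394 and 1194 TPM, and *ycf4*, a photosystem I assembly factor, had 1396, 2376 and 2518 TPM. In all 5 of these input 1 lay below both other libraries. *matK*, which encodes a splicing factor for plastid introns, had 2291, 2996 and 3485 TPM, and *accD*, which encodes a subunit of acetyl-CoA carboxylase, had 776, 993 and 1063 TPM. *ycf3*, another photosystem I assembly factor, had 2192, 1814 and 2065 TPM, and *rps4* had 713, 562 and 719.5 TPM. By contrast, *petA*, which encodes cytochrome f, had 5398, 2621 and 3310.4 TPM, *rps18*, a protein of the small ribosomal subunit, had 3694, 1928 and 2228 TPM, and *rpl20*, of the large one, had 2595, 1006 and 1367 TPM. In these 3 input 1 lay above both other libraries. For *ycf3* and *rps4* the libraries differed by no more than 0.36 on the log2 scale.

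By class, photosystem II held 64.3%, 73.0% and 68.3% of the summed TPM (68.5% ± 4.34, SD, n = 3), and a mean of 70.6% without input 1. The Rubisco large subunit followed with 12.3%, 8.77% and 10.9% (10.7% ± 1.80). Photosystem I held 5.56%, 4.48% and 5.01% (5.02% ± 0.541), and the cytochrome b6f complex held 4.10%, 3.67% and 4.10% (3.96% ± 0.248). All photosynthesis RNAs, 42 of the 73, together made up 93.8%, 94.98% and 94.3% of the pool, which left little for the rest. The ATP synthase held 6.16% in input 1, against 3.02% and 3.59% in inputs 2 and 3, and the NDH complex held 1.33% in input 1, against 2.10% and 2.41%. For these 2 classes the library with the fewest reads departed in opposite directions.

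The small ribosomal subunit had 3.06%, 2.18% and 2.79% of the TPM, and the large ribosomal subunit had 1.76%, 0.958% and 1.03%. The plastid RNA polymerase had 0.145%, 0.188% and 0.186%, the lowest share of any class. RNAs of other function had 1.27%, 1.69% and 1.72%. Because *psbA* was so abundant, every share also moves with it. Without *psbA*, photosystem II held 40.6%, 38.7% and 37.5% of the remaining TPM (38.9% ± 1.55), and the Rubisco large subunit held 20.5%, 19.9% and 21.5%. On that base the ATP synthase had 10.2%, 6.84% and 7.07%, and the NDH complex 2.21%, 4.76% and 4.75%, so that input 1 departed in the same directions as before.

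**Figure D2:**
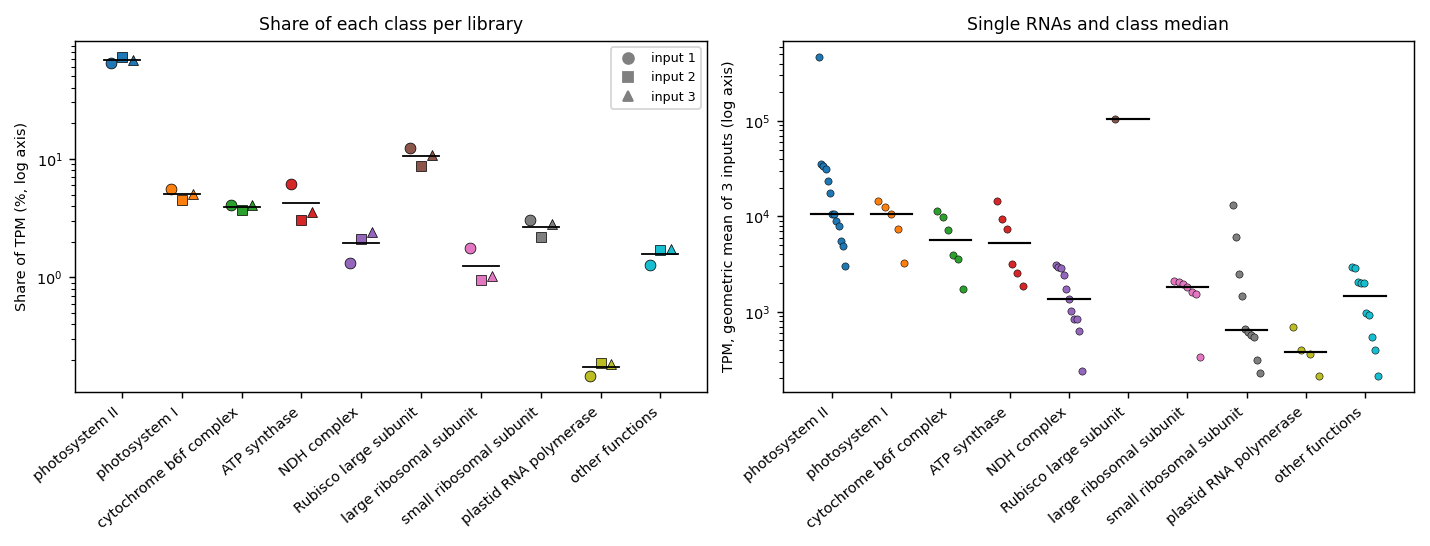
Left, share of the summed TPM (percent, log axis) held by each functional class in input 1 (circles), input 2 (squares) and input 3 (triangles), with a line at the mean. Right, mean TPM of each single RNA (log axis) with a line at the class median. Photosystem II lies highest at 64.3% to 73.0% and the plastid RNA polymerase lowest at 0.145% to 0.188%, and every class with more than 1 RNA spreads over more than 3-fold.

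The class medians, which 1 abundant RNA does not set, again put the photosystems above the ribosomal proteins and the RNA polymerase, but the order of the other classes differed in part from that by share. The small ribosomal subunit held more of the TPM than the NDH complex, the other functions and the large ribosomal subunit, yet its median was below all 3. The median photosystem II RNA stood at 11317 ± 490.5 TPM (mean and SD of the 3 library medians), and the median photosystem I RNA at 9533 ± 1073 TPM. The medians were 6069 ± 1243 TPM for the cytochrome b6f complex and 5818 ± 2290.2 TPM for the ATP synthase, and these 2 did not differ beyond their spread. Far below them lay the large ribosomal subunit with 1856 ± 648 TPM, the other functions with 1422 ± 291 TPM and the NDH complex with 1319 ± 243 TPM. The small ribosomal subunit reached 688 ± 126 TPM and the RNA polymerase 399 ± 74.1 TPM. The median of all 73 RNAs was 2469 ± 159 TPM. Within a class the highest RNA exceeded the lowest 156-fold in photosystem II, 57.3-fold in the small ribosomal subunit and 12.9-fold in the NDH complex, but only 4.54-fold in photosystem I and 3.23-fold in the RNA polymerase.

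The pool was concentrated in few RNAs. It took 2, 1 and 2 RNAs to reach 50% of the TPM in inputs 1, 2 and 3, and 11, 11 and 13 RNAs to reach 80%. The 36 lowest RNAs together made up 3.61%, 3.73% and 4.13%. Despite this, most single steps in the order were smaller than the spread between libraries. Of 72 neighbours in rank, 69 had overlapping ranges over the 3 libraries. The 3 gaps without overlap were *psbA* above *rbcL*, *rbcL* above *psbC*, and *ndhK* above *ndhC* at ranks 52 and 53. The last of these is weak. In the limma test of neighbour pairs described below, *ndhK* over *ndhC* did not pass (log2 ratio 0.41 ± 0.11, adjusted p = 0.175). Their windows overlap by 134 nt, and *ndhC* had only 13, 30 and 36 reads. Only 10 of the 72 neighbours stood in the same order in all 3 libraries. The coarse order was kept: without input 1, 10 of the 12 highest RNAs remained among the 12 highest, with *psaB* and *psbE* in place of *psaJ* and *petB*, and without input 2 or input 3 all 12 did. Ranked by reads without division by length, 8 of the 12 remained, and the short RNAs *psbI*, *atpH*, *rps14* and *psaJ* left.

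Ratios within a library do not depend on its scaling, and some pairs of photosystem RNAs kept nearly the same ratio throughout. The *psbB* level was 0.475, 0.498 and 0.506 times that of *psbC* (log2 SD 0.05), and the *psaA* level was 0.838, 0.821 and 0.849 times that of *psbB* (log2 SD 0.02). The *psbI* level was 0.724, 0.682 and 0.683 times that of *psbJ* (log2 SD 0.05). These 3 ratios were singled out after their values were seen, and the genes of each lie in different units. The ratio of *psbA* to *psbD*, the RNAs for both reaction centre proteins of photosystem II, was 7.62, 24.8 and 17.4, so it differed over 3-fold between inputs 1 and 2.

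To see how evenly RNAs from 1 transcription unit were represented, 41 pairs of neighbouring genes in 15 units were compared as the log2 ratio of TPM, downstream over upstream gene, within each library. Of these, 22 (53.7%) differed from 0 at an adjusted p under 0.05 (limma, two-sided, Benjamini-Hochberg over the 41 pairs). The downstream RNA was higher in 13 (31.7%) and lower in 9 (22%), and 20 (48.8%) also differed at least 2-fold. Successive pairs of a unit share a gene, so the 41 ratios are not independent. A high RNA such as *atpH* enters both counts. In all 22 the 3 libraries had the same sign, and 26 of the 41 pairs had an unadjusted p under 0.05. The windows overlapped in 20 of the 41 pairs and in 9 of the 22, and the sources used here do not state how a read in 2 windows was counted. With 3 libraries an exact sign-flip test of a single pair cannot go below p = 0.25, so the calls rest on the spread shared across pairs in the fit. Of the 22 pairs, 15 passed in every alternative that held them.

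**Figure D3:**
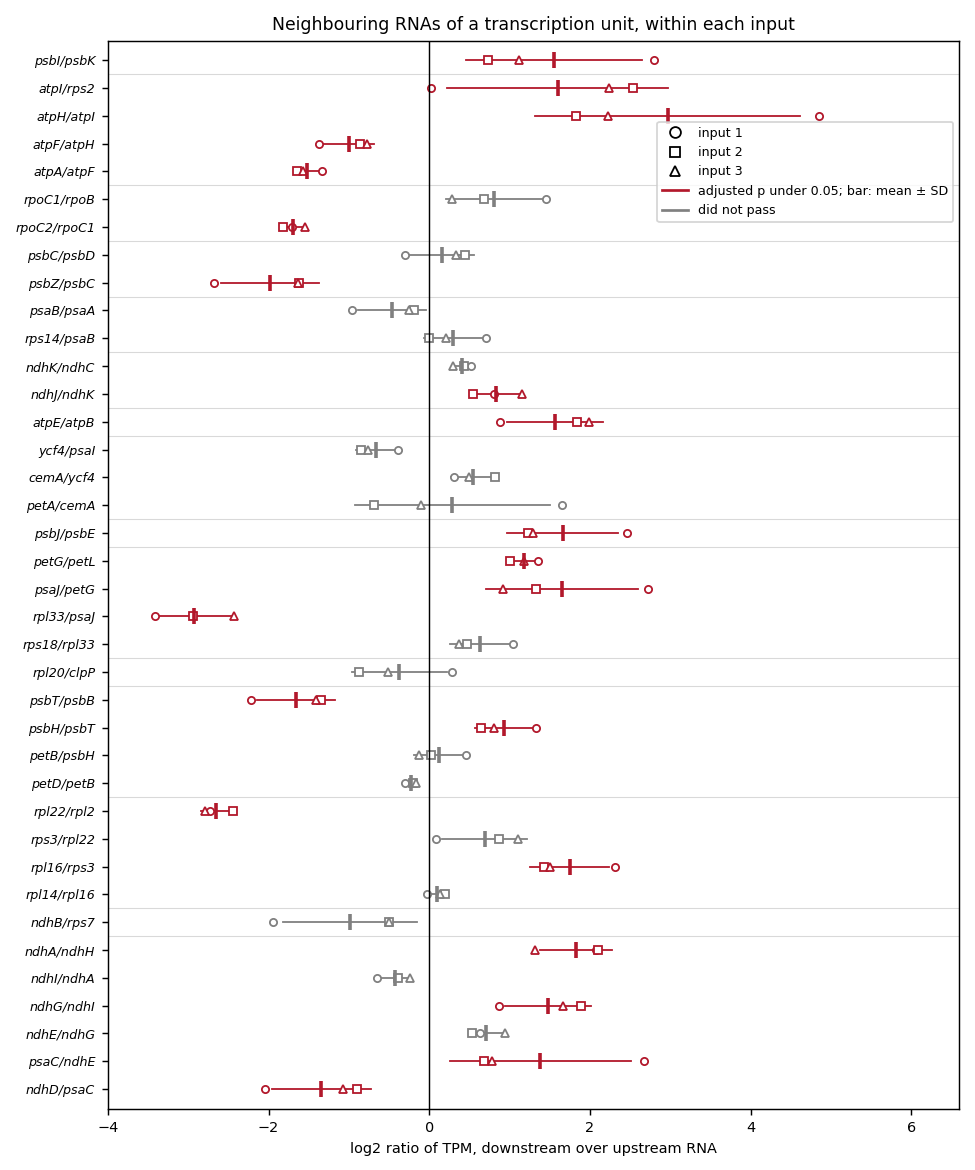
Log2 ratio of TPM, downstream over upstream RNA, for 38 of the neighbour pairs in transcription order, grouped by transcription unit. Points are inputs 1 (circles), 2 (squares) and 3 (triangles), the tick is the mean and the bar the SD; the 21 red pairs passed the test. Ratios lie on both sides of 0, from -2.93 for *rpl33* over *psaJ* to 2.97 for *atpH* over *atpI*.

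The unit of *rps2*, *atpI*, *atpH*, *atpF* and *atpA* rose and then fell along its length. *atpI* had 908, 2988 and 2425 TPM, against 894, 516 and 513 TPM for *rps2* (a protein of the small ribosomal subunit), a log2 ratio of 1.60 ± 1.37 (SD, n = 3, adjusted p = 0.0324). In input 1 these 2 RNAs were nearly equal. The ratio was 2.39 without input 1, and it no longer passed without input 2 (1.13) or without input 3 (1.28). The next gene, *atpH*, exceeded *atpI* in every library, with a log2 ratio of 2.97 ± 1.65 (SD, n = 3, adjusted p = 0.00686), or 2.02 without input 1. Past this peak, *atpF* (subunit b) had 10171, 5829 and 6586 TPM, which gave a log2 ratio to *atpH* of -1.004 ± 0.32 (SD, n = 3, adjusted p = 0.0183). The *atpF* window holds an intron. Divided by exons and flanks alone, the *atpF* to *atpH* ratio was -0.04 (adjusted p = 0.876), so the step depends on how the intron is treated. It also did not pass without input 2 (-1.08) or input 3 (-1.12). *atpA*, the last gene, had a log2 ratio to *atpF* of -1.52 ± 0.16 (SD, n = 3, adjusted p = 0.00409), or -2.48 by exons and flanks. From *rps2* to *atpH* the unit spanned 29.4-fold, 20.5-fold and 22.05-fold.

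In the unit that reads from *ndhH* to *ndhD*, *psaC* stood out among 6 *ndh* RNAs, and it exceeded *ndhH* 49.0-fold, 28.1-fold and 22.2-fold in the 3 libraries. *ndhA* had 730.1, 921 and 899.9 TPM, against 173, 214 and 361 TPM for *ndhH* directly before it, a log2 ratio of 1.83 ± 0.45 (SD, n = 3, adjusted p = 0.00409), or 2.71 by exons and flanks. The *ndhH* values rest on 5, 17 and 31 reads. *ndhI* over *ndhA* did not pass the test (log2 ratio -0.43 ± 0.21, adjusted p = 0.175). The *ndhI* values rest on 7, 29 and 34 reads. *ndhG* was above *ndhI* by 1.48 ± 0.54 (SD, n = 3, adjusted p = 0.00699), but not past the test without input 3 (1.38), and the step from *ndhG* to *ndhE* just missed the threshold (0.70 ± 0.21, adjusted p = 0.0513). *psaC* was above *ndhE* by 1.38 ± 1.12 (SD, n = 3, adjusted p = 0.0324), and by 0.73 without input 1. The last gene, *ndhD*, had 2054, 3222 and 3803 TPM, against 8489, 6014 and 8018 TPM for *psaC*, a log2 ratio of -1.34 ± 0.62 (SD, n = 3, adjusted p = 0.0117). The windows of *ndhD* and *psaC* overlap by 50 nt, and the ratio was -1.47 on unshared windows.

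**Figure D4:**
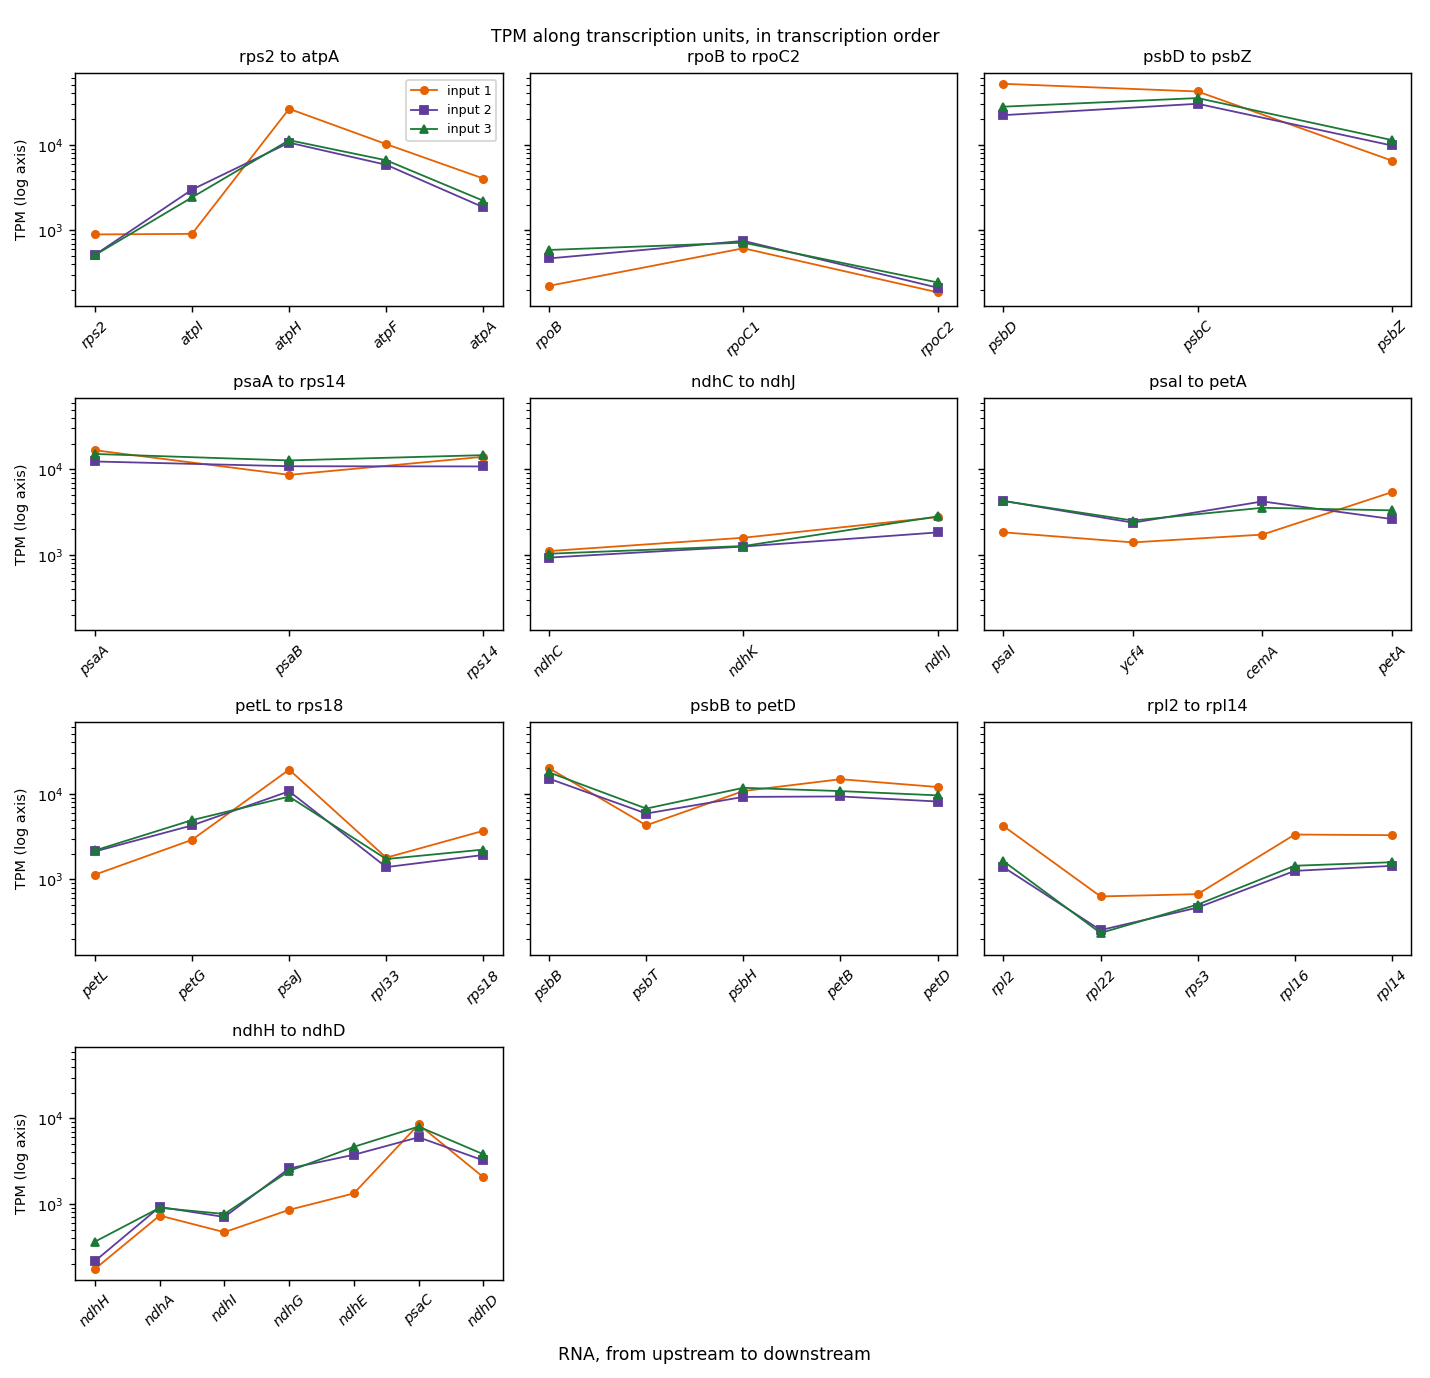
TPM (log axis) of genes of 10 transcription units in transcription order, upstream on the left, with a line for each input. Peaks stand inside units at *atpH*, *psaJ* and *psaC*, and in most units the lines of inputs 2 and 3 run closer to each other than to that of input 1.

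The unit from *petL* to *rps18* mixes photosynthesis and ribosomal genes. *petG* (a small subunit of the cytochrome b6f complex) had a log2 ratio to *petL* of 1.18 ± 0.17 (SD, n = 3, adjusted p = 0.00743), and *psaJ* a ratio to *petG* of 1.66 ± 0.95 (SD, n = 3, adjusted p = 0.0117). The first did not pass without input 3 (1.18), and the other was 1.12 without input 1. *petL* had only 7, 36 and 40 reads, and the counting error of the mean ratio of *petG* to *petL* (0.25) exceeded its SD. The adjacent *rpl33*, which encodes a protein of the large ribosomal subunit, had only 1793, 1389.9 and 1727 TPM, against 19169, 10710.1 and 9281 TPM for *psaJ*. Its log2 ratio of -2.93 ± 0.50 (SD, n = 3, adjusted p = 0.000700) was the largest drop of the 41 pairs. The windows of *rpl33* and *psaJ* do not overlap, and the ratio was -2.69 without input 1. *rps18* over *rpl33* did not pass the test (0.63 ± 0.36, adjusted p = 0.0818).

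Ribosomal protein genes of the unit that starts with *rpl2* fell and then rose. *rpl22* lay below *rpl2*, with a log2 ratio of -2.66 ± 0.19 (SD, n = 3, adjusted p = 0.000700) that was close in all 3 libraries. The gene *rps19*, which lies between these genes, was not analysed here, and the *rpl2* level averages both repeat copies. Other windows overlap 52.9% of that of *rpl22*, and on unshared windows the ratio was -1.81 (adjusted p = 0.00306). With the repeat copies of *rpl2* summed it was -3.66, and by exons and flanks -3.39. *rpl16* had 3341, 1256 and 1442 TPM, against 671, 467 and 508 TPM for *rps3*, a log2 ratio of 1.75 ± 0.49 (SD, n = 3, adjusted p = 0.00409). *rpl14* over *rpl16* did not pass (0.10 ± 0.11, adjusted p = 0.688). *rpl16* also holds an intron. With exons and flanks as the length, *rpl16* over *rps3* was 3.20 and *rpl14* lay below *rpl16* (-1.35, adjusted p = 0.00475).

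Photosystem II genes were also unequal within their units. *psbZ*, a small subunit, had 6529, 9805 and 11347 TPM, against 41970.2, 30156 and 35153 TPM for *psbC* upstream of it, a log2 ratio of -1.98 ± 0.61 (SD, n = 3, adjusted p = 0.00409). *psbC* and *psbD*, whose frames share bases as printed above, did not pass the test (0.16 ± 0.40, adjusted p = 0.609). *psbI* was above *psbK* by 1.55 ± 1.10 (SD, n = 3, adjusted p = 0.0222), or by 0.93 without input 1. *psbJ* had 48961, 26853 and 28278 TPM, against 8906, 11406 and 11511 TPM for *psbE*, a log2 ratio of 1.66 ± 0.69 (SD, n = 3, adjusted p = 0.00686), or 1.27 without input 1. The genes *psbF* and *psbL*, which lie between *psbE* and *psbJ*, were not analysed here. *psbT* over *psbB* had a log2 ratio of -1.66 ± 0.48 (SD, n = 3, adjusted p = 0.00470) and *psbH* over *psbT* one of 0.93 ± 0.36 (SD, n = 3, adjusted p = 0.0256), so that *psbT* lay below both neighbours. The step from *psbT* to *psbH* did not pass without input 2 (1.07) or input 3 (0.99). Further along the unit, *petB* over *psbH* (0.12 ± 0.30, adjusted p = 0.686) and *petD* over *petB* (-0.22 ± 0.07, adjusted p = 0.447) did not pass.

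Pairs past the test also stood in short units. *atpE*, the epsilon subunit, had 12481, 6659 and 10219 TPM, against 6749, 1858 and 2582 TPM for *atpB*, a log2 ratio of 1.57 ± 0.60 (SD, n = 3, adjusted p = 0.00686), and 1.91 without input 1. Without input 3 it did not pass (1.36). The frames overlap by the 4 bases printed above, and on unshared windows the ratio was 1.99. *rpoC2* over *rpoC1* had a log2 ratio of -1.69 ± 0.14 (SD, n = 3, adjusted p = 0.00409). *ndhJ* was above *ndhK* by 0.83 ± 0.30 (SD, n = 3, adjusted p = 0.0324), or by 0.62 (adjusted p = 0.0833) on unshared windows. It did not pass without input 2 (0.98) or input 3 (0.68). By contrast, *psaA*, *psaB* and *rps14* lay within 1.38-fold of each other on average, and neither *psaB* over *psaA* (-0.46 ± 0.43, adjusted p = 0.177) nor *rps14* over *psaB* (0.30 ± 0.36, adjusted p = 0.355) passed. *ndhB* lay below *rps7* in all 3 libraries (-0.98 ± 0.84), with an adjusted p of 0.0550 that just missed the threshold. Without input 1 it passed (-0.50, adjusted p = 0.00664), in a fit on 2 libraries that leaned on the spread of the other pairs. It also passed on unshared windows (-1.34, adjusted p = 0.0210), but not with exons and flanks as the length (-0.50, adjusted p = 0.245).

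Introns lie inside 12 of the windows, and the length that is chosen for them moved several steps. With exons and flanks as the length, 27 of the 41 pairs passed. *atpF* over *atpH* was lost, and 6 pairs were gained. Among these, *rpl20* over *clpP* had a log2 ratio of -1.83 (adjusted p = 0.00396), against -0.37 (adjusted p = 0.323) with whole windows, and *petB* over *psbH* one of 1.08 (adjusted p = 0.0106). *ndhI* over *ndhA* had -1.31 (adjusted p = 0.00539) and *rpoC1* over *rpoB* 1.24 (adjusted p = 0.0115). The genes *clpP*, *petB*, *ndhA*, *rpl16* and *rpoC1* hold introns, so that division by exons alone raises their level relative to the neighbour. How much of the reads lay in introns was not tested.

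Since input 1 departed from the others, its deviations were also read by class, as log2 TPM in input 1 minus the mean of inputs 2 and 3. The median deviation over all 73 RNAs was 0.17, and 41 were higher in input 1. In the large ribosomal subunit the median was 1.15, with 6 of 7 RNAs higher. In the ATP synthase it was 0.85 (5 of 6 higher), in the small ribosomal subunit 0.34 (8 of 10 higher) and in the NDH complex -0.68 (3 of 11 higher). Photosystem II showed no net deviation, with a median of 0.00 and 6 of 13 higher. At single RNAs the deviation reached 1.62 for *atpB*, 1.48 for *rpl2*, -1.57 for *atpI* and -2.15 for *ndhF*. Input 1 also had the fewest reads, 24636 against 68897 and 74879. A chi-square of its reads against those of inputs 2 and 3 was 47.1 and 26.2 per degree of freedom, against 12.5 between inputs 2 and 3. With 1 library on 1 side there is no test of these differences, and what set input 1 apart was not tested.

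**Figure D5:**
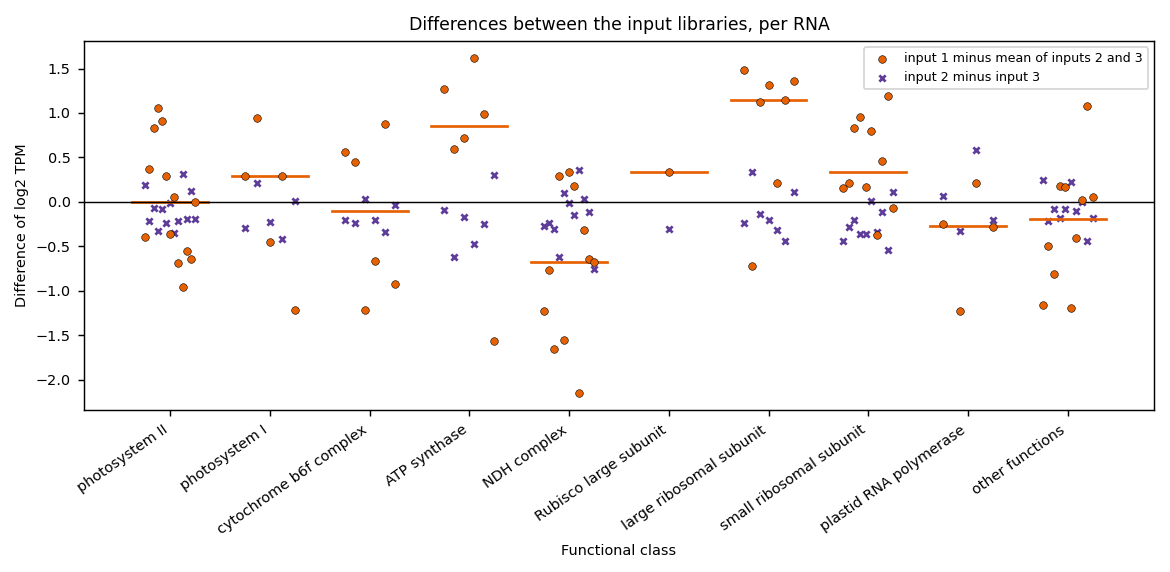
Difference of log2 TPM for each RNA by functional class, as input 1 minus the mean of inputs 2 and 3 (circles, with a line at the class median) and as input 2 minus input 3 (crosses). The circles spread widely, with class medians from -0.68 (NDH complex) to 1.15 (large ribosomal subunit), whereas the crosses stay closer to 0.

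Features of the counting windows that the choice of members did not use were set beside the levels. Across the 73 RNAs the mean log2 TPM correlated weakly with window length (Spearman's rho = -0.28) and with GC content (0.31), and not with the share of the window that other windows overlap (0.01). Within the 42 photosynthesis RNAs the correlation with GC content was 0.50 and that with window length -0.04. Within the other 31 RNAs it was -0.08 with GC content and -0.36 with window length, so neither relation held in both sets. These are descriptions over RNAs that share libraries, transcripts and base composition. The 13 RNAs with a coding part under 200 nt, whose windows consist mostly of flanks, had a median of 5533 TPM, against 1998 TPM for the other 60. All of these 13 but *rpl32* are photosynthesis RNAs, so this difference cannot be told apart from that between classes. The 12 RNAs with introns had a median of 1998 TPM, against 2849 TPM for the 61 without. For the merged copies, *ndhB* and *ycf2* had the same number of reads in both copies, and those of *rps7* and *rpl2* differed by 3 to 35 reads.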

How the data were processed

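The inputs were 3 of 6 libraries of WT seedlings, with a replicate number each in the labels, and the study calls them biological replicates. Trim Galore 0.6.4 was used by the authors for trimming, as their methods and processing notes state, STAR 2.5.3 for alignment to TAIR10, UMI-tools 0.5.4 for removing duplicates by molecular identifier, and featureCounts for counting reads on the coding strand of each plastid gene, over exons, introns and flanks of 100 nt. Genes with few reads in any library were left out by the authors, so that the low end of the pool can be cut. This filter is on reads, which also depend on length, so the RNAs left out need not be the lowest in level. The authors deposited TPM per library and the log2 of TPM, which recomputed to within 3.55e-15. The deposited table also gives the authors' mean enrichment of pellet over input and its p-value, which were not used. Window lengths and positions came from the RefSeq annotation of TAIR10.1. TPM times window length, with a factor per library, gave whole reads for 76 of 77 entries (tolerance 0.001 reads). The other, *psbC*, needed a window of 1586 nt in place of 1622 nt. The *rps12* entry covers exons 2 and 3. Of 78 annotated gene names, 6 were not analysed here. Some items are not reported here by name, and counts over all RNAs and pairs include them.

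Shares and ranks are descriptions. Ratios of neighbours were fitted with limma 3.58.1 under R 4.3.3 (lmFit on an intercept, then eBayes, which gave 4.44 prior degrees of freedom). No pseudocount was added to TPM before log2, and p was adjusted by Benjamini-Hochberg over 41 pairs. The pair of *rps7* and *ndhB*, first listed in the opposite order, was turned to the annotated order. Reads have duplicates removed, and counting errors cover counting alone. The p-values of the main fit measure the spread between these 3 libraries, and those of a fit without a library rest on 2. Members, units and lists were chosen with earlier results of these data known. Genes were named by rule: the 12 highest and 10 lowest RNAs, both ends of each class, pairs past the test with at least a 2-fold ratio, and the 5 largest and 5 smallest SDs. Other genes are named to complete a class or a unit. Alternatives were other lengths (exons, unshared windows, none), summed repeat copies, a pseudocount of 100 TPM, a minimum of 20 reads, array weights, pairs whose windows do not overlap, omission of *psbA* or of RNAs with tRNA bases in the window, and omission of each library. The settings on unshared windows, windows that do not overlap and tRNA bases were added after seeing the data. Tables and plots were made in Python 3.11.15 (matplotlib 3.10.9, scipy 1.17.1, pandas 2.3.3, numpy 2.4.6).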

Additional observations from a re-analysis of the deposited data

How the results depend on the processing

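The photosystem II share of 68.5% was 38.9% without *psbA*, and it moved by less than its SD under the other lengths, summed copies and each omitted library. Of the 20 pairs with at least 20 reads, 11 passed (5 higher downstream). Of the 21 pairs whose windows do not overlap, a setting chosen after seeing the data, 12 passed (7 higher, 5 lower). These settings held 10 and 13 of the 22 pairs past the main test, and 10 and 12 of those passed again. Both settings test fewer pairs. With each library left out in turn, 15 to 35 pairs passed, 7 to 21 with the downstream RNA higher and 8 to 14 lower. The 35 came without input 1. A fit without a library rests on 2 libraries. Without input 1 it leaned on the spread shared across pairs and hardly on that of each pair. The larger count is therefore no added support. With input 1 down-weighted (array weights 0.234, 2.01 and 2.13, from a fit that stopped before convergence), 31 passed. All 22 pairs kept their direction in every alternative that held them. Calls were lost for *atpF* over *atpH* with exon lengths, for *ndhJ* over *ndhK* on unshared windows, for *psbH* over *psbT* among windows that do not overlap, for 4 pairs without input 2 and for 7 without input 3. No paired analysis was possible because only 1 group was used and each ratio was taken within a library. Input 1 limits precision: 12 of the 22 pairs hold an RNA with under 20 reads in some library. TPM cannot show absolute amounts.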
